A study of Mus musculus with 2 samples.

Results

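The microtubule motor genes of the mouse were examined in RNA-seq of the embryonic cortex with and without Rcor2, a co-repressor that works with the histone demethylase LSD1. The set holds the genes named as kinesins, kinesin light chains and their associated protein Kifap3, and cytoplasmic dynein chains, and it was chosen by name only. Of the 21896 genes measured, 63 belonged to it. Their levels are given in FPKM, fragments scaled by transcript length and library size, which is a measure per length and allows genes to be compared with each other.

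Kinesins and dyneins are enzymes that use ATP to walk along microtubules. Most kinesins walk towards the plus end, and cytoplasmic dynein walks towards the minus end. In the germinal zone of the cortex, dividing radial glia and intermediate progenitors need kinesins that build the spindle and separate chromosomes, whereas new neurons use other kinesins to carry vesicles and organelles into the growing axon and use dynein for the way back and to pull the nucleus during migration.

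One library came from Rcor2fl/fl embryos, the control, labelled with the floxed allele alone, and 1 came from Rcor2cko embryos, in which Cre under the Nestin promoter removed the first exons of Rcor2 in the neural lineage. Both groups were C57/BL6 mice from crosses of Rcor2fl/+ NesCre parents, and the germinal layers of the cortex (VZ–SVZ, the ventricular zone with the subventricular zone above it) were dissected at E13.5. The sources used here do not say whether embryos were pooled. With 1 library per genotype, a difference between the libraries has no replicate check and no p-value is given. In this bulk tissue, fewer cells of a type and less RNA per cell cannot be told apart.

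Fragment numbers were recovered from the FPKM values of genes with 1 transcript, and the totals by which the libraries were scaled came to 18841070 fragments for Rcor2fl/fl and 25481460 for Rcor2cko. The targeted gene Rcor2 had 90.6 FPKM in the control and 55.7 FPKM in Rcor2cko, a log2 change of −0.70. These values are over the whole transcript, with the exons that Cre does not remove. The paper reports that RNA over the removed exons was absent in Rcor2cko cortex at E13.5, and that the protein was depleted by western blot. The libraries also differed in Xist (177 and 0.109 FPKM) and in the Y-linked Eif2s3y (0 and 19.8 FPKM), so sex differed along with genotype, and the 2 cannot be told apart. Of 10 markers of ventral neurons, 9 (Gad1, Gad2, Slc32a1, Dlx1, Dlx2, Dlx5, Dlx6, Isl1 and Sst) were more than 1.5-fold higher in Rcor2cko, and the summed level of the list was 36.5 FPKM in the control and 94.0 FPKM in Rcor2cko. Of 8 choroid plexus and ciliated cell markers, Ttr (0 and 57.8 FPKM) and Aqp1 (0.352 and 1.396 FPKM) were higher by that fold. The choroid plexus markers Clic6 (0.0598 and 0.820 FPKM), Folr1 (0.243 and 0.723 FPKM) and Otx2 (0.243 and 0.670 FPKM) were under 1 FPKM in both libraries and higher in Rcor2cko, with 95% exact counting intervals of the ratio, from recovered fragments, above 0. Kl was at 0 and 0.00798 FPKM, and Ccdc153, a marker of ciliated cells, was listed at 0 in both. Foxj1, of the same list, had 1.87 FPKM in the control and 1.78 FPKM in Rcor2cko, with an interval of −0.49 to 0.36 that held 0. Of 7 microglial markers, 3 (Csf1r, Tyrobp and C1qa) were higher by that fold, and C1qb was the highest in level (4.59 and 5.48 FPKM). Of the endothelial and pericyte markers none passed it, with Cldn5 (12.4 and 12.7 FPKM) the highest. Emx2, of the cortical identity list, and the haemoglobin gene Hbb-b1 were lower by that fold, and Hbb-b2, the highest of the erythroid list, was at 184 and 190 FPKM. The Y-linked Ddx3y, Kdm5d and Uty were higher in Rcor2cko by that fold, like Eif2s3y. The cortical neuron gene Neurod6, at 399 and 386 FPKM, and the intermediate progenitor genes Eomes, at 80.9 and 68.1 FPKM, and Neurog2, at 84.3 and 88.0 FPKM, marked both libraries as cortex. The part of these differences in the values below was not tested.

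Most motor genes had nearly equal levels in both genotypes. A gene was compared when it had at least 1 FPKM in at least 1 library, which left 52 of the 63 motor genes, and the change is the ratio of Rcor2cko to control, each as FPKM + 0.1, on the log2 scale. One motor gene, Dynlt1e, was more than 1.5-fold higher and 0 were more than 1.5-fold lower, where 3.79% and 1.76% of all 11777 genes compared passed that fold in these directions. In all, 48 of the 52 (92.3%) stayed within 1.25-fold. The same held for 84.5% of all genes compared and for 92.8% of the 8299 better expressed genes, those that reached 5 FPKM in each library. Of the 42 motor genes that reached 5 FPKM in each library, 40 (95.2%) stayed within 1.25-fold.

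The small differences leaned to one side. Among the 52, 41 (78.8%) were lower and 11 higher in Rcor2cko, whereas 57.6% of all genes compared and 61.2% of the better expressed genes were lower. The median log2 change of the motor genes was −0.09, and it was −0.03 over all genes compared and −0.04 over the better expressed genes. Counted against the median of all genes, 37 motor genes lay below it and 15 above.

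For 37 of the 52, a 95% exact (Clopper-Pearson) interval of the ratio could be formed from the recovered fragments. It covers counting error only, without the spread between embryos. The interval lay below 0 for 12 motor genes (32.4%), against 23.2% of all such genes, and above 0 for 1, Kif11, against 14.0%. It held 0 for the other 24. These intervals were set against 0 without rescaling the libraries. Kif5b, Kifc1, Kif1c and Dynll1 had upper bounds between the median of all genes, −0.03, and 0. On the other side, the lower bounds of Dynlt3 and Kif26a lay between that median and 0. Intervals narrow with the number of fragments, and for the better expressed genes the shares were 27.5% below and 11.9% above 0. The deposited values also carry 95% FPKM intervals, given in the control per transcript. Where a gene had several transcripts, the half-widths of its control intervals were combined here in quadrature. The intervals of the 2 libraries then overlapped for all 52 genes.

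**Figure D1:**
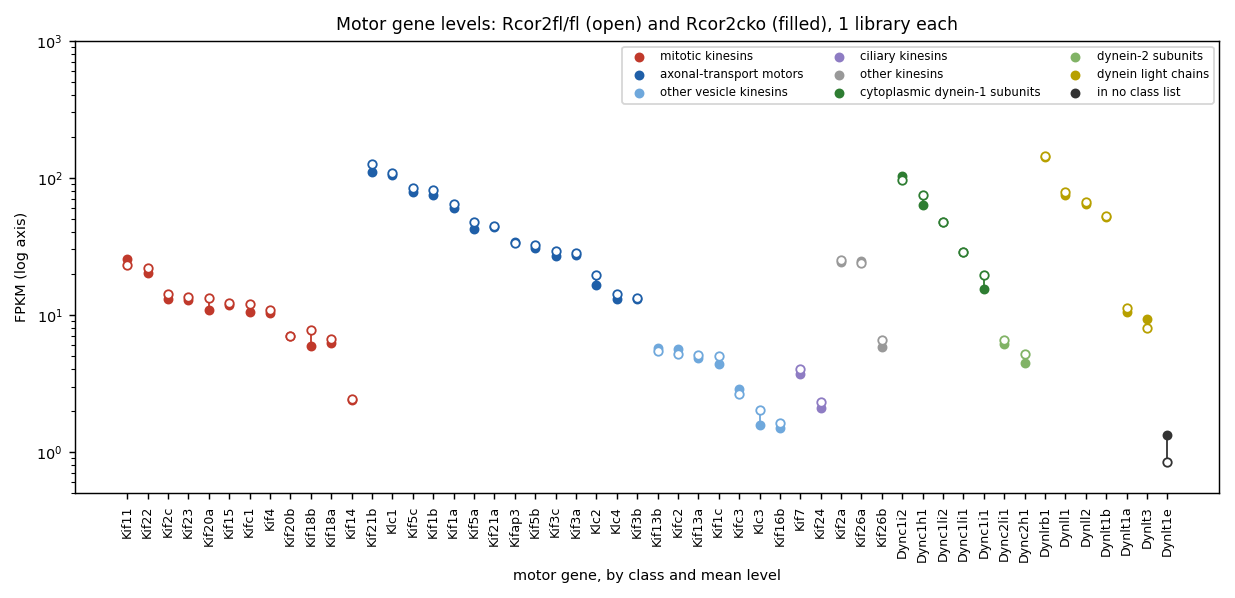
Level of each of the 52 motor genes compared, in FPKM on a log axis, with the Rcor2fl/fl library as an open circle and the Rcor2cko library as a filled circle joined by a line, and colours for the classes. The axonal-transport motors sat between 13.0 and 127 FPKM and the mitotic kinesins between 2.37 and 25.4 FPKM, and in nearly all genes the 2 circles overlap or touch.

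The mitotic kinesins, the motors of the spindle and of cytokinesis, were lower in Rcor2cko for 10 of the 12 compared, and none passed 1.5-fold. Their median level was 12.1 FPKM in the control and 10.7 FPKM in Rcor2cko, and their summed level 145 and 136 FPKM. The median log2 change was −0.09, with a range of −0.38 to 0.15.

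Kif11, the kinesin-5 that slides antiparallel microtubules apart to separate the spindle poles, was the highest of them and the one motor gene whose counting interval lay above 0. It had 22.9 FPKM (1997 fragments) in the control and 25.4 FPKM (2993 fragments) in Rcor2cko, a log2 change of 0.15 (0.07 to 0.23). The gene lies at chr19:37450893-37496349 on the plus strand in mm9, with 22 exons in its longest annotated transcript. Its change stood at percentile 82.2 of all genes compared.

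Kif18b, a kinesin-8 that acts on the plus ends of astral microtubules, lay at the other end. It had 7.80 FPKM (462 fragments) in the control and 5.97 FPKM (477 fragments) in Rcor2cko, a log2 change of −0.38 (−0.57 to −0.20) at percentile 5.02 of all genes compared. Its locus is chr11:102766843-102786438 on the minus strand in mm9.

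Kif20a, which carries the chromosomal passenger complex to the central spindle, had 13.3 FPKM in the control and 10.8 FPKM in Rcor2cko, a log2 change of −0.30. It has 3 RefSeq transcripts, so no fragments were recovered for it. Kifc1, a minus end-directed motor that bundles microtubules and gathers spindle poles, had 12.0 and 10.6 FPKM, a log2 change of −0.18 (−0.36 to −0.01). Kifc1 has a close relative, Kifc5b, that is not part of the set and had 3.84 and 3.19 FPKM, and how reads were divided between these 2 genes is uncertain.

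The intervals of the other 8 held 0. The chromokinesin Kif22, which pushes chromosome arms away from the poles, had 22.1 FPKM in the control and 20.1 FPKM in Rcor2cko. The second chromokinesin, Kif4, which lies on the X chromosome, had 10.9 and 10.2 FPKM. Neither difference was larger than its counting error.

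Kif2c, a kinesin-13 that shortens microtubule ends at centromeres, had 14.2 FPKM in the control and 12.9 FPKM in Rcor2cko. Kif18a, which dampens the movements of chromosomes at the metaphase plate, had 6.71 and 6.25 FPKM. Kif15, which can keep spindle poles apart alongside Kif11, had 12.2 and 11.9 FPKM. Unlike Kif11, none of these 3 was higher in Rcor2cko.

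Among the motors of the midzone and of cytokinesis, Kif23, the motor subunit of centralspindlin, had 13.503 FPKM in the control and 12.8 FPKM in Rcor2cko. Kif20b, needed for the last steps of abscission, had 6.989 and 6.997 FPKM. Kif14, which recruits citron kinase to the midbody, had 2.45 and 2.37 FPKM and was the lowest of the 12. None of these 3 was told apart from 0 by its interval. Kif2b, a relative of Kif2c, was listed at 0 in both libraries, where 3 fragments would have given 0.0767 FPKM in the control and 0.0569 FPKM in Rcor2cko.

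Most mitotic kinesins shared a feature of their promoters that the choice by name did not use. Many genes expressed in G2 and mitosis carry the cell cycle genes homology region (CHR), with the letters TTTGAA, close to the start, often with CCAAT boxes upstream. RefSeq promoters (GRCm38.p6, 250 bases before to 50 after the annotated start) were found for 47 of the 63 motor genes and searched on both strands for these letters, each motif by itself even where 2 matches overlapped. The 12 mitotic kinesin promoters come from 12 genes, with Kif2b but without Kif20a. The 13 axonal-transport promoters come from 11 genes, with Kif1a and Kif1b listed more than once and without Kif21b, Kif5a, Kif5b and Klc2. TTTGAA or its reverse complement was present in 10 of 12 mitotic kinesin promoters (83.3%), in 1 of 13 axonal-transport promoters (7.69%) and in 17.9% of all 32851 promoters. CCAAT or its reverse complement was present in 8 of 12 (66.7%), in 6 of 13 (46.2%) and in 37.4%. Both occurred in 7 of the 12 (58.3%), in 0 of the 13, and in 6.95% of all promoters. The mitotic promoters of Kif18a and Kif2b held no CHR letters. Outside these 2 classes, Kif26b and Kif27 also held both motifs, and in Kif26b the CHR letters began at −9. No test was made of these shares, and a match of letters is a description and not a binding site.

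In 8 of the 12 mitotic promoters the CHR letters lay within 50 bases of the start, compared with 1 of 13 axonal-transport promoters (7.69%) and 4.94% of all promoters. That distance was chosen after the positions were seen. The 8, which carry the feature of most of these motors, are shown from 50 bases before the start to 25 bases from it onwards. Each holds 75 bases 5′ to 3′ on the gene's strand, and capitals mark CHR and CCAAT letters on either strand.
Kif11 (chr19:37376332-37376406, plus strand, GRCm38.p6): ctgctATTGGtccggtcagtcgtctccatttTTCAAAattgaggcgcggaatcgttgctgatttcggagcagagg
Kif22 (chr7:127042396-127042470, minus strand, GRCm38.p6): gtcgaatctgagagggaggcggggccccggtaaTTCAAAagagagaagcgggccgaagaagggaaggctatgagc
Kif23 (chr9:61946775-61946849, minus strand, GRCm38.p6): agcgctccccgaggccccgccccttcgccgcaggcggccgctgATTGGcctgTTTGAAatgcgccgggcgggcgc
Kif15 (chr9:122951031-122951105, plus strand, GRCm38.p6): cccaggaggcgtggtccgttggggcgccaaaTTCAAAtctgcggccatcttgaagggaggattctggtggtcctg
Kifc1 (chr17:33890609-33890683, minus strand, GRCm38.p6): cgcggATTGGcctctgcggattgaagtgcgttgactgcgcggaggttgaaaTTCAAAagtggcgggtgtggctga
Kif4 (chrX:100626015-100626089, plus strand, GRCm38.p6): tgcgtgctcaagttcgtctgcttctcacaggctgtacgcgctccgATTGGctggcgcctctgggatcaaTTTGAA
Kif20b (chr19:34922308-34922382, plus strand, GRCm38.p6): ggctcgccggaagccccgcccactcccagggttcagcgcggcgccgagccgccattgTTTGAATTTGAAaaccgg
Kif18b (chr11:102925100-102925174, minus strand, GRCm38.p6): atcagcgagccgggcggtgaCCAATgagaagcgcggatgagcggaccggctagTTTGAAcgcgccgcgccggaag

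In Kif11 the CHR letters began 19 bases before the start with an inverted CCAAT box at −45, and in Kif18b they began at base 4 with CCAAT boxes at −53 and −30. The mitotic kinesins with the highest and the lowest log2 change therefore both held both motifs. In Kif20b, whose level was the same in the 2 libraries, 2 adjacent copies began at bases 8 and 14.

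The same window is shown for the 3 axonal-transport motors of highest level among those with a RefSeq promoter. These 75 bases held neither motif in any of the 3, and for Kif1b, which has several annotated starts, the first listed is shown.
Klc1 (chr12:111758818-111758892, plus strand, GRCm38.p6): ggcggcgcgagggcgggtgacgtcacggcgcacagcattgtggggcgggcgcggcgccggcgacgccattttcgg
Kif5c (chr2:49619236-49619310, plus strand, GRCm38.p6): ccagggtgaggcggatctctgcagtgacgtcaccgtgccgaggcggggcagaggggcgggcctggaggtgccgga
Kif1b (chr4:149307709-149307783, minus strand, GRCm38.p6): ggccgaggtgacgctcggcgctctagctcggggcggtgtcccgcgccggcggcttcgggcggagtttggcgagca

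**Figure D2:**
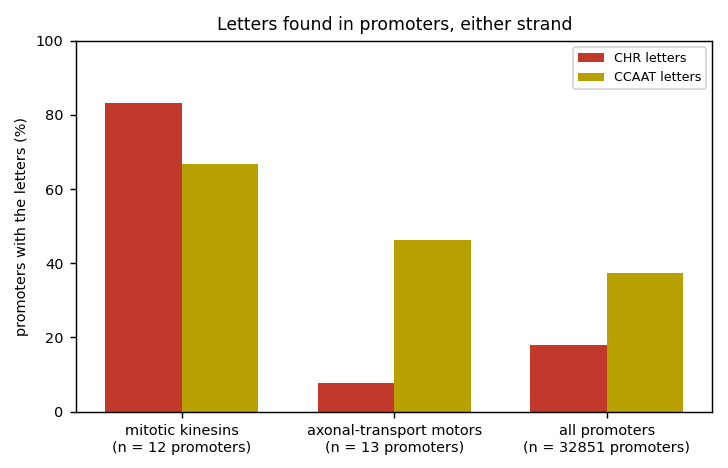
Percent of RefSeq promoters that hold the CHR letters (red) or the CCAAT letters (yellow) on either strand, for the mitotic kinesins (n = 12 promoters), the axonal-transport motors (n = 13) and all promoters (n = 32851). The red bar is 83.3% for mitotic kinesins and 7.69% for axonal-transport motors, beside 17.9% of all promoters.

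The axonal-transport motors carry vesicles, mitochondria and cytoskeletal parts from the cell body outwards. They were lower in Rcor2cko for 13 of the 14 compared, and all 14 stayed within 1.25-fold. Their median level was 39.0 FPKM in the control and 38.1 FPKM in Rcor2cko, and their summed level 727 and 677 FPKM. The median log2 change was −0.09, with a range of −0.23 to 0.04.

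Kif21b, a kinesin-4 that walks along neuronal microtubules, was the kinesin of highest level. It had 127 FPKM (21280 fragments) in the control and 110 FPKM (25067 fragments) in Rcor2cko, a log2 change of −0.20 (−0.22 to −0.17), and its level stood at percentile 97.1 of all genes compared. It lies at chr1:138027966-138074575 on the plus strand in mm9. Its relative Kif21a had 44.6 and 43.7 FPKM, so the share of Kif21b in the sum of the pair was 73.9% in the control and 71.6% in Rcor2cko.

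Kinesin-1 is the main carrier of fast anterograde transport, built of a pair of heavy chains (Kif5) and a pair of light chains (Klc). Kif5c had 83.7 FPKM in the control and 78.7 FPKM in Rcor2cko, a log2 change of −0.09 (−0.13 to −0.05). Kif5a had 47.7 and 42.0 FPKM, a log2 change of −0.18, and the widely expressed Kif5b had 32.1 and 30.7 FPKM, a log2 change of −0.06 and an interval whose upper bound was just below 0. The mix of heavy chains hardly moved, with Kif5c at 51.2% and 52.0% of their sum, Kif5a at 29.2% and 27.7%, and Kif5b at 19.6% and 20.3%.

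Among the light chains, which link the heavy chains to cargo, Klc1 had 109 FPKM in the control and 106 FPKM in Rcor2cko. Klc2 had 19.4 and 16.6 FPKM, a log2 change of −0.23 (−0.35 to −0.10) and the lowest of the axonal-transport class. Klc4 had 14.2 and 13.0 FPKM, with an interval that held 0. Klc1 made up 75.3% and 77.2% of the summed light chains.

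Kinesin-2 is a complex of Kif3a with Kif3b or Kif3c and the adaptor Kifap3, and serves axons as well as cilia. Kif3a had 28.3 FPKM in the control and 27.5 FPKM in Rcor2cko, and Kif3b had 13.3 and 13.1 FPKM, both with intervals that held 0. Kif3c, the form enriched in neurons, had 29.4 and 26.7 FPKM, a log2 change of −0.14 (−0.20 to −0.08). Kifap3 had 33.3 and 34.2 FPKM and was the only one of the 14 axonal-transport motors compared that was listed higher in Rcor2cko, with an interval of −0.04 to 0.11 that held 0.

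The kinesin-3 motors Kif1a and Kif1b carry synaptic vesicle precursors, and a form of Kif1b carries mitochondria. Kif1b had 81.5 FPKM in the control and 74.3 FPKM in Rcor2cko, a log2 change of −0.13, and Kif1a had 64.3 and 60.3 FPKM, a log2 change of −0.09. Both have 2 RefSeq transcripts and no counting interval. Kif17, a motor of dendrites and cilia in the same class, had 0.147 and 0.149 FPKM and was not compared.

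Set side by side, the mitotic and the axonal-transport motors had the same median log2 change within rounding. The medians, −0.0921 and −0.0909, differed by −0.0012. The median half-width of the counting interval of a single gene was 0.142 in the first class and 0.0715 in the second. Below the median of all genes lay 10 of 12 mitotic kinesins and 11 of 14 axonal-transport motors. Counting intervals lay below 0 for 2 of 11 mitotic kinesins (18.2%) and 5 of 9 axonal-transport motors (55.6%). They lay above 0 for 1 and 0 of these. For the better expressed genes the shares were 27.5% below and 11.9% above 0. The intervals of the second class were narrower, and narrower intervals leave 0 more readily. The classes also differed in level. The summed FPKM of the axonal-transport motors was 5.01 times that of the mitotic kinesins in the control and 4.96 times in Rcor2cko. The axonal-transport sum includes the light chains Klc1, Klc2 and Klc4 and the adaptor Kifap3, which are not motor chains. The mitotic sum holds motor chains only. The range of log2 changes was wider among the mitotic kinesins, as were their counting intervals. No test was made of these class differences.

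**Figure D3:**
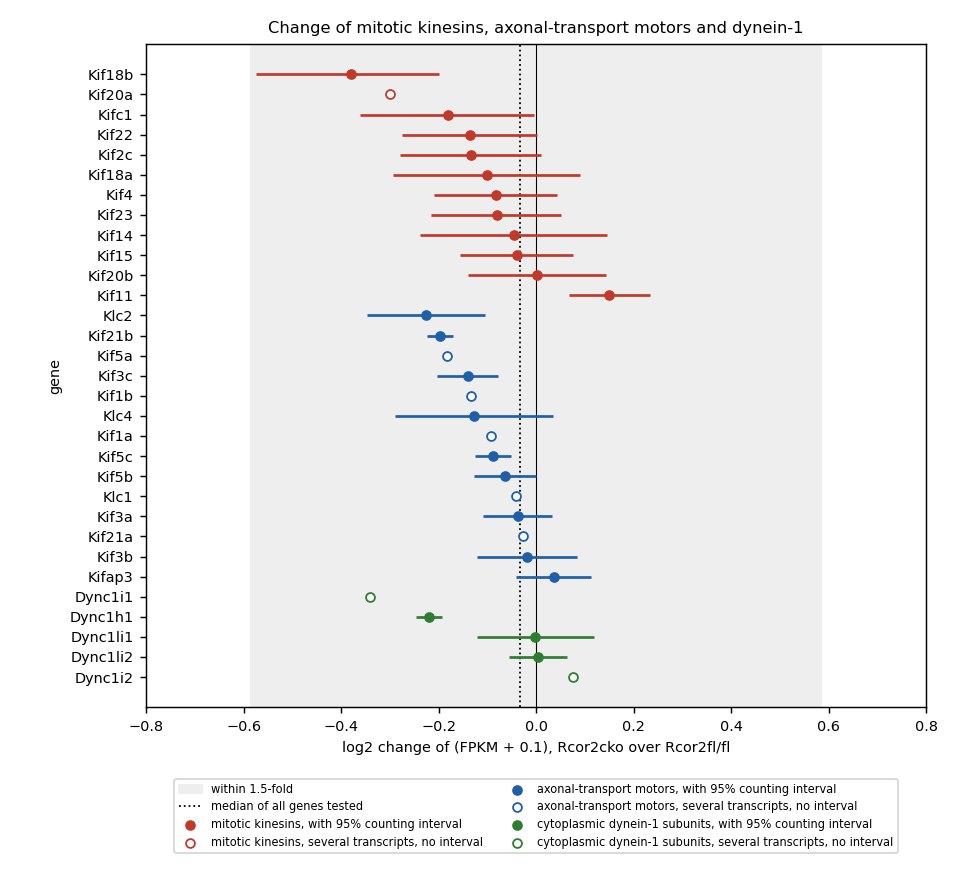
Change from Rcor2fl/fl to Rcor2cko on the log2 scale of FPKM + 0.1, for the mitotic kinesins (red), axonal-transport motors (blue) and dynein-1 subunits (green). Bars are 95% counting intervals, open circles are genes with several transcripts and no interval, the grey band is 1.5-fold and the dotted line the median of all genes compared (−0.03). All circles lie inside the band, with Kif18b at −0.38 and Kif11 at 0.15 at the ends of the mitotic class.

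**Figure D4:**
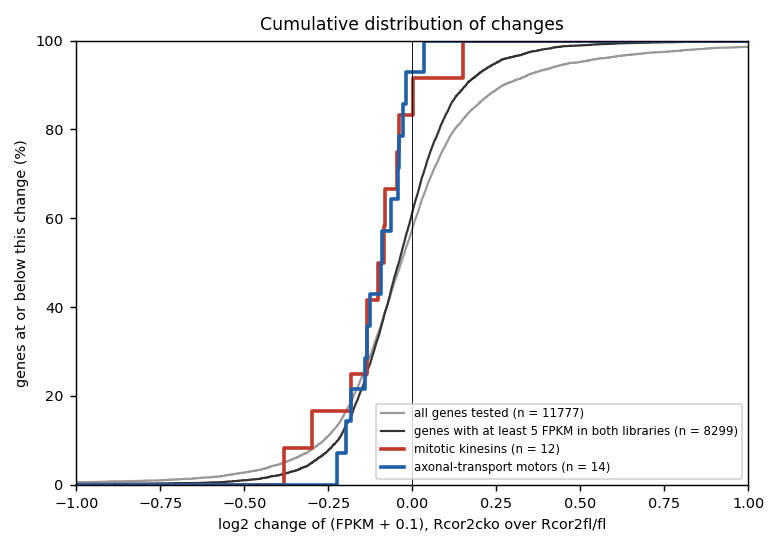
Percent of genes at or below each log2 change of (FPKM + 0.1), for the mitotic kinesins (n = 12), the axonal-transport motors (n = 14), all genes compared (n = 11777) and the better expressed genes, with 5 FPKM or more in each library (n = 8299). The red and blue steps cross each other repeatedly and meet the middle of the plot at −0.09, to the left of both grey curves, which reach it at −0.03 and −0.04.

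Markers of the cells in which these motors work were measured in the same libraries. All 10 markers of cycling cells, such as Mki67 (45.5 and 38.7 FPKM) and Pcna (135 and 135 FPKM), were lower in Rcor2cko with a median log2 change of −0.15, and none passed 1.5-fold. The counting interval lay below 0 for 8 of them. For the better expressed genes with intervals, 27.5% lay below 0 and 11.9% above. These shares also stand beside the interval counts of the neuron and radial glia markers that follow. The summed level of the cycling cell markers was 447 FPKM in the control and 414 FPKM in Rcor2cko. Of 11 markers of postmitotic neurons 6 were lower and 5 higher, with a median of −0.02 and sums of 1281 and 1216 FPKM. Of the 8 with recovered fragments, 4 (Tubb3, Nefm, Ina and Snap25) had intervals below 0 and 0 above, and Tubb3, the highest in level, had 568 and 521 FPKM. Of 9 radial glia markers 5 were lower and 4 higher, with a median of −0.02 and none past 1.5-fold. Their summed level was 890 FPKM in the control and 1038 FPKM in Rcor2cko, and Fabp7, the highest (372 and 539 FPKM), had a log2 change of 0.53, whereas Hes1 (12.5 and 8.57 FPKM) had −0.53. Among 7 of them with recovered fragments, 3 intervals lay below 0 and 2 above. The part of cell numbers in the motor gene values was not tested.

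The genes listed as spindle partners of the mitotic kinesins were lower for 16 of 20, with a median log2 change of −0.07 and none past 1.5-fold. Of all genes compared 57.6% were lower, and of the better expressed genes 61.2%. Among the 14 partners with recovered fragments, 7 intervals lay below 0 and 1 above. For the better expressed genes the shares were 27.5% and 11.9%. The range of the partners was −0.44 (Plk1) to 0.33 (Ndc80). One of them, Cenpe, is itself a mitotic kinesin that the choice by name left out, and it had 11.0 and 10.4 FPKM. Ckap5, a microtubule polymerase and the partner of highest level, had 51.3 FPKM in the control and 51.0 FPKM in Rcor2cko. Of 18 kinesin cargo adaptors compared, 11 were lower and 7 higher, with a median of −0.05, and none passed 1.5-fold. Fez1, an adaptor of kinesin-1 and the highest of them, had 172 and 168 FPKM.

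Cytoplasmic dynein-1, the main minus end-directed motor, is built around a pair of heavy chains. Dync1h1, its only heavy chain gene, had 74.3 FPKM (19878 fragments) in the control and 63.8 FPKM (23070 fragments) in Rcor2cko, a log2 change of −0.22 (−0.25 to −0.19), and stood at percentile 13.6 of all genes compared. It lies at chr12:111839662-111905155 on the plus strand in mm9, with 77 exons in its longest annotated transcript. Over the 5 dynein-1 subunits the median log2 change was −0.00, with a range of −0.34 to 0.08, so the subunits had no common value.

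The light intermediate chains, which bind cargo adaptors, were level. Dync1li1 had 28.5 FPKM in both libraries, with an interval of −0.12 to 0.12, and Dync1li2 had 47.7 FPKM in the control and 47.9 FPKM in Rcor2cko, with an interval of −0.06 to 0.06. For both, the interval excluded a change as large as that of Dync1h1.

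The intermediate chains, which hold dynactin, went apart. Dync1i1, the form typical of neurons, had 19.5 FPKM in the control and 15.4 FPKM in Rcor2cko, a log2 change of −0.34 at percentile 6.16 of all genes compared. Dync1i2, the form found in most cells, had 97.1 and 102 FPKM, a log2 change of 0.08. The share of Dync1i1 in their sum was 16.7% in the control and 13.1% in Rcor2cko. Both genes have several transcripts and no counting interval, and the 95% FPKM intervals of Dync1i1, 16.5 to 22.5 FPKM in the control (combined over its transcripts) and 12.5 to 18.2 FPKM in Rcor2cko, overlapped.

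Dynein-2, the retrograde motor of cilia, had lower levels. Its heavy chain Dync2h1 had 5.20 FPKM in the control and 4.47 FPKM in Rcor2cko, a log2 change of −0.21 (−0.32 to −0.11), and its light intermediate chain Dync2li1 had 6.56 and 6.17 FPKM with an interval that held 0. Both heavy chain genes, of dynein-1 and of dynein-2, thus had intervals below 0. Among genes compared that had recovered fragments, the share was 23.2%, and among the better expressed ones 27.5%. The heavy chain transcripts are long, at 14398 and 13972 nt, which gives more fragments at a given level.

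The light chains are small subunits of which several also serve outside dynein. Dynlrb1, of the roadblock family, was the motor gene of highest level at 145 FPKM in the control and 142 FPKM in Rcor2cko. Of the LC8 chains, Dynll1 had 79.4 and 74.3 FPKM, a log2 change of −0.09 (−0.17 to −0.02), and Dynll2 had 66.7 and 64.8 FPKM. Dynlt3, a Tctex chain on the X chromosome, had 8.07 and 9.33 FPKM, a log2 change of 0.21 and the largest among the light chains compared in this class, and its interval (−0.00 to 0.42) held 0.

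The Dynlt1 genes, also Tctex chains, cannot be read one by one. Their coding sequences in the annotation are 342 nt long and 99.7% to 100% identical in all pairs of the 5 copies, so the division of reads among them is uncertain. Dynlt1b was listed at 52.9 FPKM in the control and 51.5 FPKM in Rcor2cko, and Dynlt1a at 11.3 and 10.6 FPKM. Dynlt1e, the one motor gene past 1.5-fold, was listed at 0.838 and 1.32 FPKM, a log2 change of 0.60, and its 95% FPKM intervals, 0.307 to 1.37 in the control (combined over its transcripts) and 0.656 to 1.99 FPKM in Rcor2cko, overlapped. Dynlt1c (0.425 and 0.0798 FPKM) and Dynlt1f (0.172 and 0.129 FPKM) were too low to compare. Summed, the 5 copies had 65.6 and 63.6 FPKM, a log2 change of −0.05.

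Dynactin, the complex that dynein needs for processive movement, was compared in 12 subunits. Of these 7 were lower and 5 higher in Rcor2cko, with a median log2 change of −0.12, a range of −0.18 to 0.15 and none past 1.5-fold. Actr1a, the actin-related protein of its filament and the subunit of highest level, had 103 FPKM in the control and 91.3 FPKM in Rcor2cko. Of 15 dynein regulators and adaptors compared, 9 were lower and 6 higher, with a median of −0.07 and none past 1.5-fold. Spag9, an adaptor of both motor families and the highest of these, had 64.7 and 67.9 FPKM.

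The remaining vesicle kinesins were of low level. The 7 compared had between 1.62 and 5.42 FPKM in the control, 4 were lower and 3 higher in Rcor2cko, and their median log2 change was −0.05. Kif13b, a kinesin-3 and the highest, had 5.42 and 5.69 FPKM. Klc3, a light chain, had the largest change of the class, from 2.04 to 1.56 FPKM, a log2 change of −0.36 (interval −0.91 to 0.15) from 61 and 63 fragments, so that it was not told apart from 0 at this depth. Kif1c, a relative of Kif1b found in many tissues, had 4.97 and 4.39 FPKM and an interval of −0.34 to −0.02. Kif13a, Kif16b, Kifc2 and Kifc3 had log2 changes between −0.10 and 0.13.

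Of the kinesins with ciliary roles, only Kif7 and Kif24 reached 1 FPKM. Kif7, which sits at the tip of the primary cilium and takes part in Hedgehog signalling, had 4.01 FPKM in the control and 3.68 FPKM in Rcor2cko, a log2 change of −0.12 (−0.34 to 0.09). Kif24, which restrains the outgrowth of cilia, had 2.32 and 2.10 FPKM, a log2 change of −0.14 (−0.39 to 0.11). Kif6, Kif9, Kif19a and Kif27 ranged from 0.131 to 0.560 FPKM in the control and from 0.0850 to 0.709 FPKM in Rcor2cko.

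Of the kinesins of other kinds, 3 were compared. Kif2a, a kinesin-13 that trims microtubules in axon branches, had 25.2 FPKM in the control and 24.4 FPKM in Rcor2cko. Kif26a, a kinesin without motor activity, had 23.9 and 24.9 FPKM with an interval of −0.01 to 0.13. Kif26b had 6.58 and 5.81 FPKM and the largest change among them, −0.18 (−0.31 to −0.05). The 2 Kif26 genes lay on opposite sides of 0, and the interval of 1 of them excluded it.

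Besides Kif2b, Kif4b was listed at 0 in both libraries. Kif12 was listed at 0.0258 FPKM in the control and at 0 in Rcor2cko, and Dynlrb2, a light chain of ciliated cells, at 0 in the control and at 0.125 FPKM in Rcor2cko, so neither bears a fold change.

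The control values were listed per RefSeq transcript and show which forms of the motors were in use. Of the 63 genes 16 had more than 1 transcript, and 11 of these reached 1 FPKM in the control. In 10 of the 11 the FPKM interval of the leading transcript did not overlap that of the next. The leading transcript of Kif1b, 10099 nt long, had 71.1 FPKM or 87.3% of the gene, and the shorter one, 7066 nt, had 10.4 FPKM or 12.7%. For Dync1i2 the leading form had 75.5 FPKM or 77.7% and the next 20.8 FPKM or 21.4%, from a second annotated start. Klc1 was divided into 67.6%, 22.5% and 9.90%.

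Kif21a was the gene without a leader. Its first 3 transcripts had 16.6, 14.4 and 12.6 FPKM, or 37.3%, 32.2% and 28.3% of the gene, and the intervals of the first and the next overlapped. They share an annotated start, so the estimates rest on reads over the parts in which they differ. The Rcor2cko values were listed per gene, and the use of transcripts could not be compared between the genotypes.

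**Figure D5:**
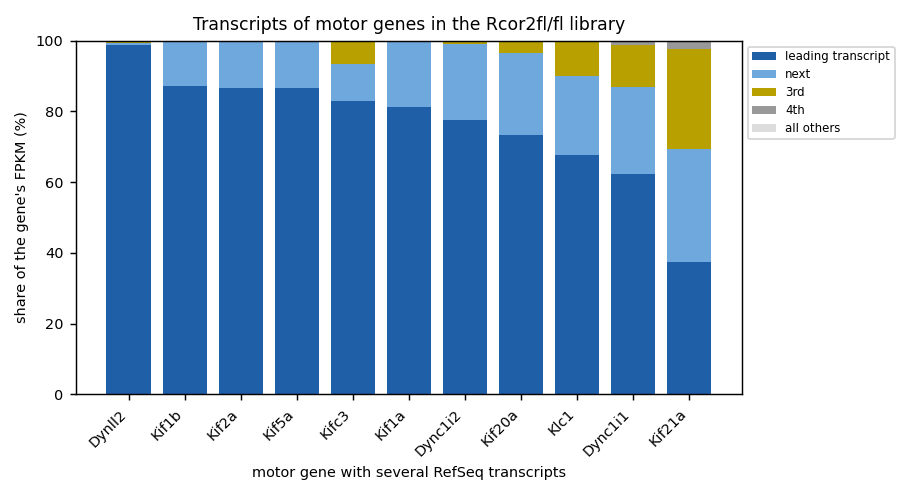
Share of the FPKM of each motor gene held by its RefSeq transcripts in the Rcor2fl/fl library, for the 11 genes with several transcripts and at least 1 FPKM, stacked from the leading transcript (bottom) upwards to 100%. The leading share falls from 98.9% in Dynll2 to 37.3% in Kif21a.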

How the data were processed

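RNA was isolated from the E13.5 VZ–SVZ with RNeasy columns and libraries were made with a stranded mRNA kit. The authors mapped the reads to mm9 and computed FPKM. Their methods name TopHat v2.0.3 and Cuffdiff, whereas the submitters' processing notes list TopHat 1.3.3 and Cufflinks 1.2.0. The deposited FPKM values have 27641 rows, 1 per transcript, for Rcor2fl/fl and 21896 rows, 1 per gene, for Rcor2cko. Motor genes are a group of names matched by a pattern, and their classes and the pathway and marker lists were chosen with earlier results of these data known.

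Rows of a gene were summed, their deposited 95% FPKM half-widths being combined in quadrature, and genes reaching 1 FPKM in either library were compared as log2(FPKM + 0.1), with a difference called past 1.5-fold. Every mitotic, axonal-transport and cytoplasmic dynein member compared is named, and in each other class and list those past 1.5-fold and the highest in level; the member of largest change is also named for the classes. Some further members of the classes and lists are also named. Where a gene had 1 transcript, 1000 nt or longer, fragments were recovered from FPKM, the length less a fitted offset and a fitted step; of the values up to 100 fragments 99.3% and 99.4% lay within 0.1 of a whole number. Exact 95% intervals of the ratio, formed without the added 0.1, cover counting error only. A value of 3 fragments on a 2000 nt transcript equals 0.0882 and 0.0654 FPKM. The steps were tested on simulated data. Positions are from GENCODE vM1 on mm9 (59 of 63 genes). Python 3.11.15 with numpy 2.4.6, pandas 2.3.3, scipy 1.17.1 and matplotlib 3.10.9 was used.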

Additional observations from a re-analysis of the deposited data

How the results depend on the processing

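The class medians, their difference and the number of motor genes past 1.5-fold were each recomputed under those of 16 other choices that bear on them (pseudocount, scaling, filter, summing of transcripts, X chromosome, class membership, fold, intervals and status), and the count and the median of all motor genes also with the Dynlt1 copies summed, chosen after seeing the data. The median log2 change stayed below 0 in the 13 alternatives run for all motor genes (−0.09 to −0.04), the 12 for mitotic kinesins (−0.10 to −0.06) and the 14 for axonal-transport motors (−0.13 to −0.03). The difference between the classes ranged from −0.0538 with the highest transcript row per gene to 0.0380 without Kif3a, Kif3b, Kifap3 and Kif5b. Its sign is therefore not fixed. It stayed under 0.133, the median counting half-width of single motor genes. That width is not the error of a difference of medians, so it does not show that the difference is stable. Scaling the libraries by the median multiplied Rcor2cko values by 1.02, and 4 motor genes listed lower then turned higher. The number past 1.5-fold, 1, was 0 with a pseudocount of 1 FPKM, with at least 5 FPKM, with at least 1 FPKM in both libraries, above 2-fold, with intervals that do not overlap and with the Dynlt1 copies summed. It was 3 with no filter and 2 with the highest transcript row, which takes 1 transcript from the control and the whole gene from Rcor2cko. No paired analysis was possible because each genotype has 1 library. Depth limits the low motor genes most, with 3 fragments worth 0.0882 and 0.0654 FPKM at 2000 nt.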

Other observations

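Intraflagellar transport, the train that kinesin-2 and dynein-2 pull along the cilium, was measured in 17 of its components. Of these 12 were lower and 5 higher in Rcor2cko, with a median log2 change of −0.10, a range of −0.32 to 0.16 and none past 1.5-fold. Ift20, the component of highest level, had 28.9 FPKM in the control and 26.1 FPKM in Rcor2cko. Of 14 axonemal dynein genes, which drive beating cilia, 2 reached 1 FPKM. Dnalc4, the higher of them, had 22.4 and 20.3 FPKM. Of the 12 below that level, Dnahc7b had 0.355 FPKM (81 fragments) in the control and 0.80002 FPKM (247 fragments) in Rcor2cko, Dnahc8 had 0.0664 FPKM (18 fragments) and 0.196 FPKM (72 fragments), and Dnahc6 had 0.0128 FPKM (3 fragments) and 0.110 FPKM (35 fragments). These 3 were the only axonemal dynein genes of 14 with counting intervals above 0, and 0 lay below it. Of all genes that reached 1 FPKM and had recovered fragments, 14.0% had intervals above 0 and 23.2% below. No such share was formed for genes under 1 FPKM, where these 3 lie, so the count is a description only. The 3 were named after their values were seen.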
